A study of Gallus gallus with 4 samples.

Results

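The genes described here encode G protein-coupled receptors and the proteins that carry, shorten or end their signals inside the cell. They were chosen by symbol: every gene of the deposited table with a mean above 0 whose symbol begins like that of a receptor family of this class, an RGS (regulator of G protein signalling) gene, a G protein subunit, an adenylyl cyclase or a cyclic nucleotide phosphodiesterase, leaving out the scavenging receptor ACKR3. This gave 39 of the 14861 genes with a mean above 0, namely 27 receptors and 12 intracellular genes. Only 1301 of those 14861 genes carry a symbol, so other receptor and signalling genes stand in the table without a name, and the counts below describe the identifiable ones. The naming rule itself uses no fold change or p-value, although it was written with earlier results of these data known.

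The samples are RNA libraries from chick neural tube, 2 control and 2 Hoxb8. Control embryos received the plasmid pCIG at 2 µg/µl at Hamburger-Hamilton stage 11, and Hoxb8 embryos received Hoxb8-pCIG at 1 µg/µl mixed with pCIG at 1 µg/µl, so that cells of both groups carried pCIG and its green fluorescent protein and the total plasmid dose was the same. The fluorescent part of the tube was dissected 18 hours later, and living fluorescent cells were sorted, a mixture of whichever cell types had taken up DNA. The labels do not say whether the 2 libraries of a group came from separate embryos. The spread between libraries that enters the p-values may therefore be technical. Standard errors of the tested genes described here lay close to those of other genes of like level. A p-value thus need not show how closely the libraries of a group matched for a given gene. In such sorted tissue, fewer cells of a type and less RNA per cell cannot be told apart.

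A G protein-coupled receptor spans the membrane and, when its ligand binds, loads GTP onto the alpha subunit of a heterotrimeric G protein, which then parts from the beta and gamma subunits. Alpha subunits of the Gs class raise cyclic AMP through adenylyl cyclase, while in the Gi and Go class those of Gi lower it. RGS proteins speed the hydrolysis of GTP and so shorten the signal, and phosphodiesterases break down cyclic AMP or cyclic GMP. In the neural tube low cyclic AMP and kinase A activity is permissive for Hedgehog signalling, and lipid receptors of this class act on cell shape and cell movement.

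The study made 1 comparison, Hoxb8 against control, and the deposited table gives for each gene 1 mean over the 4 libraries (in normalised counts, that is read counts scaled by each library's size factor), 1 log2 fold change with its standard error (SE, printed after ± throughout), and a p-value with Benjamini-Hochberg adjustment across genes. The column names are those of DESeq2, a count model that the submitters' processing notes also name, and the p-values are credited to it on that ground. Values per library were not used here, so no group mean or overlap of groups can be given. Positive changes are higher in Hoxb8. A library held 79237283 normalised counts on average. Neither HOXB8 nor LZTS1 has a line under its symbol (0 and 0), so the electroporated gene gives no check of the direction. Of 35 marker genes of neural, crest, blood, mesodermal and ectodermal cells, only 4 stand in the table under their symbol. The 0 progenitor markers and the 1 neuronal marker found, NEUROD4, listed at 0, leave the labelled tissue unchecked. Of the other markers found, PECAM1 and LMO2 are given with S1PR1 below, and the surface ectoderm gene GRHL2 stood at a log2 fold change of -0.49 ± 0.26 per the authors' deposited table (mean 95.4, adjusted p = 0.223). Of 10 genes whose symbols begin like those of ribosomal protein genes, which every cell uses, 3 are also listed at 0. The 10 were picked by prefix and not checked 1 by 1. A listed 0 is therefore not read here as absence.

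Of the 39 genes 29 had an adjusted p-value, and 7 of these passed 0.05 per the authors' deposited table, 3 of them higher and 4 lower. The background was 15.2 percent of all 12574 genes with an adjusted p (8.72 percent higher and 6.49 percent lower), and 17.8 percent of the 1157 that carry a symbol, against 24.1 percent of the 29. The risers were RGS8, RGS19 and PDE7A, and the fallers were GNAO1, RGS7BP, PDE4C and S1PR1. Their absolute log2 changes ran from 0.34 to 0.87. The deposited changes are read here as moderated toward 0, which is inferred from the small SEs of genes with few counts. Of the 7, 0 reached 2-fold, a size that 14.4 percent of all called genes reached, a difference that was not tested. As deposited, the calls lay mostly inside the cell, in 6 of 9 intracellular genes with an adjusted p against 1 of 20 receptors. This split of the families was made after the values were seen, was not tested and depended on the setting. With genes over a mean of 10000 set to a median of 0, PDE4C, RGS7BP and the receptor S1PR1 lost their calls. The receptors RXFP3, GPR183 and ADRA2C gained calls at that setting. The median log2 fold change was 0.09 over the 29 genes and -0.01 over all genes tested. These medians compare genes of unlike level, since the median of the means was 296 for the 29 genes and 2335 for all. Over all genes with a mean of 100 to 1000 the median log2 fold change was 0.15. The scores of all genes were wider than unit spread, with a central spread of 1.69, and with every score divided by that value 0 of the 7 still passed (2.48 percent of all genes did).

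**Figure D1:**
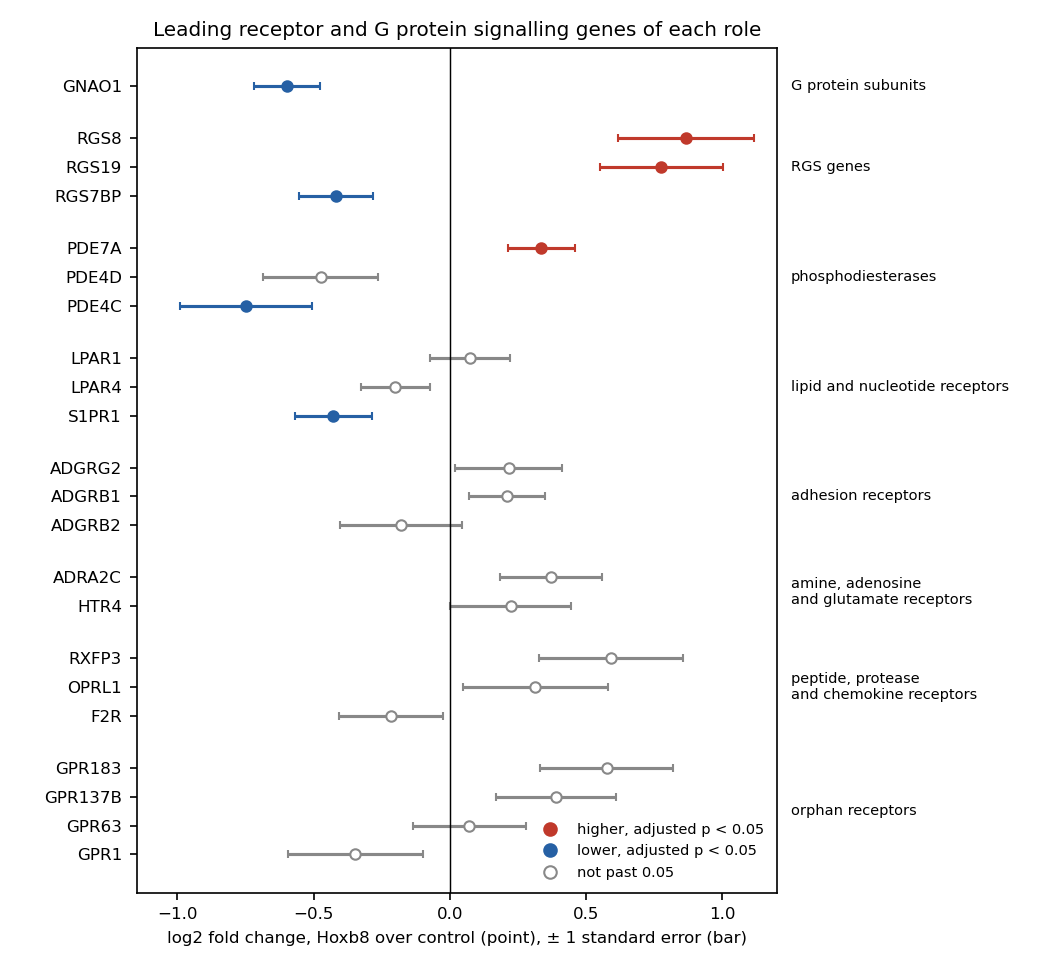
Log2 fold change of Hoxb8 over control (horizontal axis) for 22 of the 29 genes with an adjusted p, grouped by role: all that passed, and of each role the lowest p-values and the highest mean; points are the authors' deposited estimates, bars 1 SE, and filled points passed an adjusted p of 0.05. The 7 filled points lie between -0.75 (PDE4C) and 0.87 (RGS8), and only S1PR1 among them is a receptor.

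Among the G protein subunits GNAO1 was the 1 gene found by symbol with a mean above 0. It encodes the alpha subunit of Go, which is abundant in neurons and their growth cones and is activated by receptors that inhibit adenylyl cyclase. GNAO1 (ENSGALG00000003163) had a mean of 5522 normalised counts and fell by 0.60 ± 0.12 on the log2 scale per the authors' deposited table, to 0.661 of the control level (95% interval of the log2 change -0.84 to -0.36, adjusted p = 3.07e-05 by DESeq2). It had the lowest p-value of the 39 genes and the most counts behind it, which is a matter of depth since counts are not corrected for transcript length. The 2 other alpha subunit genes found by symbol, GNAI3 and GNAT2, were listed at 0 and so are not among the 39. Beta and gamma subunits and adenylyl cyclases have no line under a matching symbol (0 adenylyl cyclases) and were not analysed here.

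Of the 7 genes whose symbols begin with RGS, 4 had an adjusted p, and 3 of the 4 passed (all genes, 15.2 percent). Those that encode RGS proteins, RGS8 and RGS19, rose, and RGS7BP fell. RGS8 and RGS19 encode proteins that speed GTP hydrolysis on alpha subunits of the Gi and Go class. Per the authors' deposited table RGS8 (ENSGALG00000026263, mean 158 normalised counts) rose by 0.87 ± 0.25 on the log2 scale, a 1.82-fold change (adjusted p = 0.00629 by DESeq2). RGS19 (ENSGALG00000021079, mean 341) rose by 0.78 ± 0.22 per the authors' deposited table, a 1.71-fold change (adjusted p = 0.00655 by DESeq2). RGS7BP encodes no GTPase activator but the palmitoylated protein that anchors RGS proteins of the R7 family at the membrane. RGS7BP (ENSGALG00000027389, mean 2658) moved the other way and fell by 0.42 ± 0.14 per the authors' deposited table, to 0.748 of control (adjusted p = 0.0182 by DESeq2).

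RGS20, a relative of RGS19 in the same RZ subfamily, stood at a log2 fold change of 0.09 ± 0.24 per the authors' deposited table (mean 181, adjusted p = 0.870, 95% interval -0.39 to 0.56). That interval overlaps the one of RGS19, 0.34 to 1.22, and the difference was not tested. RGS16, RGS22 and RGS13 had means of 14.3, 12.5 and 2.45 normalised counts per the authors' deposited table, too low for an adjusted p.

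The phosphodiesterases split by direction, with 2 of 4 past the threshold (all genes, 15.2 percent). PDE4C and PDE4D belong to the PDE4 family, and PDE7A to the PDE7 family; both families break down cyclic AMP and spare cyclic GMP. PDE4C (ENSGALG00000028269, mean 197 normalised counts) fell by 0.75 ± 0.24 per the authors' deposited table, to 0.595 of the control level (adjusted p = 0.0183 by DESeq2). PDE4D (mean 346) stood at -0.47 ± 0.21 per the authors' deposited table and did not pass (adjusted p = 0.118, unadjusted 0.0251). PDE7A (ENSGALG00000015516, mean 5267) rose by 0.34 ± 0.12 per the authors' deposited table, a 1.26-fold change (adjusted p = 0.0420 by DESeq2). The cone photoreceptor subunit gene PDE6H, whose product inhibits a phosphodiesterase of cyclic GMP, stood at 0.17 ± 0.25 per the authors' deposited table (mean 47.7, adjusted p = 0.733).

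Of the lipid receptors 1 of 4 passed (all genes, 15.2 percent). S1PR1, a receptor for sphingosine-1-phosphate that couples to Gi and is known best from endothelial cells and lymphocytes, had a mean of 1791 normalised counts (ENSGALG00000005208). It fell by 0.43 ± 0.14 on the log2 scale per the authors' deposited table, to 0.743 of control (adjusted p = 0.0215 by DESeq2). Of 7 endothelial and blood markers 2 were found by symbol: per the authors' deposited table PECAM1 stood at -0.03 ± 0.27 (mean 1998, adjusted p = 0.963) and LMO2 rose by 1.48 ± 0.17 (mean 1026, adjusted p = 4.50e-16). PECAM1 had a larger SE than S1PR1 (0.27 against 0.14) at a similar mean, so its small value does not show an equal share of endothelial cells. Which cells gave the LMO2 rise, and the part of endothelial cells in the S1PR1 value, were not tested.

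The lysophosphatidic acid receptors had SEs close to that of S1PR1 and did not pass. LPAR1, the receptor of the ventricular zone in the developing mouse cortex, stood at 0.07 ± 0.15 per the authors' deposited table (mean 1774, adjusted p = 0.805, 95% interval -0.21 to 0.36). LPAR4 stood at -0.20 ± 0.13 per the authors' deposited table (mean 3627, adjusted p = 0.316, 95% interval -0.45 to 0.05). The lymphoid receptor gene S1PR4 had a mean of 35.2 and a log2 fold change of 0.07 ± 0.24 per the authors' deposited table. The LPAR1 interval excludes a fall of the S1PR1 estimate's size, and the LPAR4 interval does not. Both overlap the 95% interval of S1PR1 itself, -0.71 to -0.15, and the differences were not tested.

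No adhesion receptor passed in the DESeq2 comparison (0 of 3, where 15.2 percent of all genes passed). At an unadjusted p under 0.05 there were also 0, against 3358 of all 12574 genes with an adjusted p. ADGRB1 and ADGRB2 encode the brain-enriched receptors BAI1 and BAI2, and ADGRG2 a receptor known from the male reproductive tract. Per the authors' deposited table ADGRB1 stood at a log2 fold change of 0.21 ± 0.14 (mean 2840, adjusted p = 0.352), ADGRG2 at 0.22 ± 0.20 (mean 490, adjusted p = 0.527) and ADGRB2 at -0.18 ± 0.23 (mean 337, adjusted p = 0.672). The brain pair had estimates of opposite sign with 95% intervals that overlap (-0.07 to 0.48 and -0.62 to 0.26).

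Of the receptors for amines and glutamate 0 of 2 passed in the DESeq2 comparison, where 15.2 percent of all genes did. An unadjusted p under 0.05 was found for 1 of the 2, and for 3358 of all 12574 genes. ADRA2C, an alpha-2 adrenergic receptor that couples to Gi, stood at 0.37 ± 0.19 per the authors' deposited table (mean 909, adjusted p = 0.183, unadjusted 0.0482). The serotonin receptor gene HTR4, whose product couples to Gs, stood at 0.22 ± 0.22 per the authors' deposited table at a mean of only 19.8 (adjusted p = 0.573).

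Peptide and protease receptors gave 0 of 3 calls in the DESeq2 comparison, where 15.2 percent of all genes passed. An unadjusted p under 0.05 was found for 1 of the 3, and for 3358 of all 12574 genes. RXFP3, the receptor of relaxin-3, had the largest positive estimate among the 20 tested member receptors, 0.59 ± 0.26 per the authors' deposited table, at a mean of 54.6 (adjusted p = 0.119, unadjusted 0.0255). OPRL1, the nociceptin receptor gene, stood at 0.31 ± 0.27 per the authors' deposited table (mean 72.2, adjusted p = 0.491). F2R, the thrombin receptor gene, stood at -0.22 ± 0.19 per the authors' deposited table (mean 784, adjusted p = 0.514).

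The 12 receptors under GPR symbols began as orphans, and several now have ligands. Of these, 8 had an adjusted p and 0 passed in the DESeq2 comparison, where 15.2 percent of all genes did. An unadjusted p under 0.05 was found for 1 of the 8, and for 3358 of all 12574 genes. GPR183, a receptor for oxysterols that guides B cells, came nearest, with 0.58 ± 0.24 at a mean of 36.3 per the authors' deposited table (adjusted p = 0.0962). GPR137B, which encodes a lysosomal membrane protein, stood at 0.39 ± 0.22 (mean 296, adjusted p = 0.245) and GPR1, a chemerin receptor gene, at -0.35 ± 0.25 (mean 166, adjusted p = 0.387) per the authors' deposited table. GPR6 and GPR12, relatives that raise cyclic AMP without added ligand, stood at -0.27 ± 0.23 (mean 23.8) and -0.16 ± 0.26 (mean 117) per the authors' deposited table. GPR63, the most highly counted of these 8 genes at a mean of 426, stood at 0.07 ± 0.21 per the authors' deposited table (adjusted p = 0.873), and GPR19 at 0.12 ± 0.23.

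At the bottom of the range, 10 of the 39 genes lay below the lowest mean that carries an adjusted p, 17.5 normalised counts. They were ADRA1A, GRM2, CCR6, GPR132, GPR82, GPR141, GPR20, RGS13, RGS16 and RGS22, with means of 0.950 to 14.3. In 6 of them the normalised counts of all 4 libraries together summed to under 10, as in GPR141 with a sum of 3.80. Their deposited log2 fold changes ran from -0.04 to 0.23 and 0 of the 10 had an unadjusted p under 0.05 (DESeq2). Of all 3895 genes with a p-value below a mean of 100, 229 were under 0.05 unadjusted. Among these 229, 208 were of the 1608 with an adjusted p, so few genes without an adjusted p were. The SEs of the 10 were small for such low counts (0.06 to 0.19). From this the authors' deposited fold changes are inferred to be moderated toward 0 when counts are few. The values of the 10 genes therefore do not show that they were alike in both groups. Several of the 10, such as CCR6 and GPR132, are known mainly from cells of the immune system.

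By level the counts were as follows, with no test of a trend. Below a mean of 100, 0 of 9 genes passed in the DESeq2 comparison, where 5.53 percent of all genes did. An unadjusted p under 0.05 was found there for 2 of the 9, and for 208 of all 1608 genes with an adjusted p. Between 100 and 1000, 3 of 13 passed (all genes, 19.0 percent), and between 1000 and 10000, 4 of 7 (all genes, 15.1 percent). All genes leaned upward at 100 to 1000, with a median log2 fold change of 0.15 and 16.2 percent called higher against 2.74 percent called lower. PDE4C was 1 of the 78 genes at these levels that were called lower. Set against the running median of the 500 genes nearest in level, PDE4C stood at -0.90, RGS8 at 0.71 and RGS19 at 0.59, while GNAO1 (-0.56), RGS7BP (-0.42), S1PR1 (-0.44) and PDE7A (0.36) moved by little from their deposited log2 values. The SEs of the 29 genes were 0.935 to 1.07 times the median of genes at their level. Values per library were not used, so these SEs do not show how closely libraries matched for each gene.

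**Figure D2:**
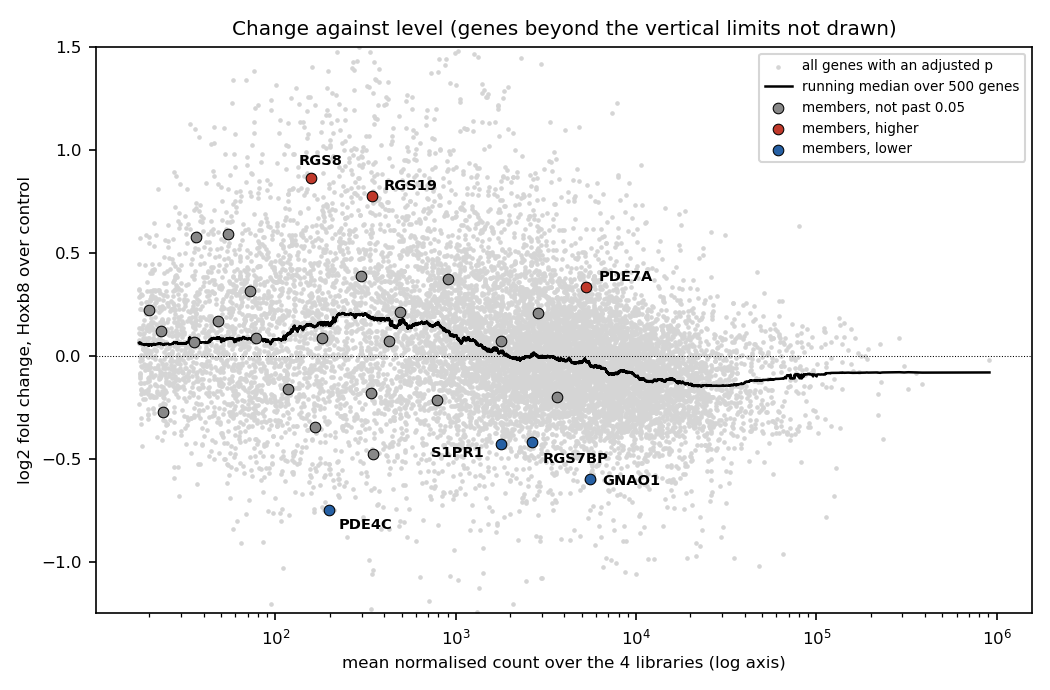
Log2 fold change (vertical axis) against the mean normalised count over the 4 libraries (horizontal log axis) for all genes with an adjusted p in grey, with their running median over 500 genes as a line and the 29 receptor and signalling genes as large points. RGS8, RGS19 and PDE4C lie in the range of 100 to 1000 where the line is above 0, and GNAO1 and PDE7A at means of 5522 and 5267, where it is close to 0.

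The 7 calls differed in how they stood up to centring. With changes centred on genes of like level, where 12.6 percent of all genes passed, RGS19 lost its call (adjusted p = 0.0639, over a range of 0.000879 to 0.486 across the settings tried) and PDE4D gained 1 with a log2 value of -0.66 (adjusted p = 0.0187, range 0.0187 to 0.865). With genes over a mean of 10000 set to a median of 0, a shift of 0.12 upward after which 17.6 percent of all genes passed, the fallers S1PR1 (-0.30, adjusted p = 0.127), RGS7BP (-0.29, adjusted p = 0.120) and PDE4C (-0.62, adjusted p = 0.0547) lost their calls and RXFP3, GPR183 and ADRA2C gained them as risers (adjusted p = 0.0413, 0.0286 and 0.0479). Their adjusted p-values ran up to 0.636, 0.616, 0.616, 0.866, 0.842 and 0.917 across the settings. GNAO1, RGS8 and PDE7A passed under both centrings, with GNAO1 at an adjusted p of 0.000127 and 0.00144. Both centrings moved PDE7A further from 0 (0.36 and 0.46), and the shift of genes over 10000 did so for RGS8 (0.99). Passing there was thus little check of those calls. Without the filter on the mean PDE7A stood at an adjusted p of 0.0496. With scores divided by their central spread GNAO1 had the lowest adjusted p of the 7, 0.113, and the other 6 lay between 0.481 and 0.727.

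**Figure D3:**
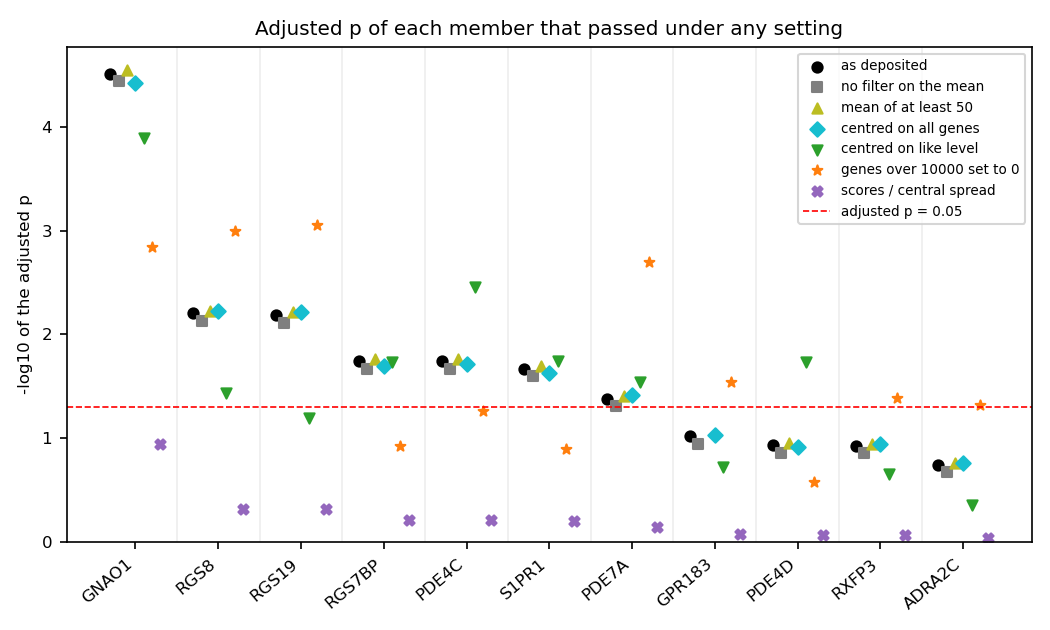
Adjusted p on a -log10 scale (vertical axis) of the 11 genes that passed under any setting, under the deposited values and 6 other settings, 1 symbol each; the dashed line is 0.05. GPR183 has no point for a mean of at least 50 because its mean is 36.3; GNAO1 lies highest as deposited, and every gene lies under the line when scores are divided by their central spread.

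Neighbouring genes were read from the gene order of the reference assembly GRCg7b, in which all 39 symbols were found; positions are not printed because the files use another build. There were 2 pairs of adjacent members. OPRL1 stands beside RGS19, and per the authors' deposited table both had positive log2 fold changes (0.31 ± 0.27 and 0.78 ± 0.22), of which only that of RGS19 passed. RGS16 stands beside RGS8 with a log2 fold change of 0.23 ± 0.17 per the authors' deposited table, at a mean too low for an adjusted p. Of the 14 coding neighbours of the 7 called genes, 5 stand in the table under a symbol. OLFM3, an olfactomedin gene next to S1PR1, rose by 0.82 ± 0.17 per the authors' deposited table (mean 1265, adjusted p = 6.27e-05) while S1PR1 fell. RNF180 beside RGS7BP stood at 0.25 ± 0.25 per the authors' deposited table (adjusted p = 0.563), and DNAJC5B beside PDE7A had a mean of only 0.262. Without a stated strand setting, reads of overlapping neighbours cannot be told apart.

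The wider pathway was read from 6 lists of 183 genes outside the naming rule, of which 20 stand in the table under their symbol and 14 had an adjusted p. Of these 14, 4 passed, 3 higher and 1 lower, or 28.6 percent. The 1 lower was LGR6, which as given below does not act through a G protein. The background was 15.2 percent of all genes and 17.8 percent of those with a symbol. The lists were chosen with earlier results of these data known, and the difference in share was not tested. PRKG1, the kinase activated by cyclic GMP, rose by 0.62 ± 0.12 at a mean of 6407 per the authors' deposited table, a 1.54-fold change (adjusted p = 1.38e-05 by DESeq2). Its paralogue PRKG2 stood at 0.21 ± 0.22 per the authors' deposited table (mean 371, adjusted p = 0.595). RAMP3, a membrane partner that turns the calcitonin receptor-like receptor into a receptor of adrenomedullin, rose by 0.89 ± 0.25 at a mean of 184 per the authors' deposited table, a 1.85-fold change (adjusted p = 0.00421 by DESeq2). Its ligand gene ADM, at a mean of 21.5, stood at 0.26 ± 0.23 per the authors' deposited table (adjusted p = 0.512). RAMP2, the partner that serves the same receptor in endothelium, had a mean of 15.7, too low for an adjusted p.

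The chemokine gene CXCL12 rose by 0.52 ± 0.17 per the authors' deposited table (mean 1159, adjusted p = 0.0172), a call lost by centring on genes of like level (adjusted p = 0.0614, range 0.00144 to 0.610 across settings). The endothelin gene EDN3 had a log2 fold change near 0 with an SE of 0.14 per the authors' deposited table (mean 1856, adjusted p = 0.998). LGR6, a receptor of R-spondins that acts in WNT signalling and not through a G protein, fell by 0.69 ± 0.23 at a mean of 276 per the authors' deposited table (adjusted p = 0.0227 by DESeq2), a call lost with genes over 10000 set to 0 (adjusted p = 0.0694, range 0.00229 to 0.642 across settings). Neither PRKG1 (adjusted p = 0.0907) nor RAMP3 (0.432) passed with scores divided by their central spread.

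On the kinase A side 0 of 4 genes passed in the DESeq2 comparison, where 15.2 percent of all genes did. An unadjusted p under 0.05 was found for 0 of the 4, and for 3358 of all 12574 genes. Per the authors' deposited table PKIA and PKIB, which encode inhibitors of kinase A, stood at 0.23 ± 0.15 (mean 1420, adjusted p = 0.318) and 0.26 ± 0.26 (mean 50.5, adjusted p = 0.576), and the anchoring protein genes AKAP11 and AKAP5 at 0.04 ± 0.13 and -0.12 ± 0.23. The regulators ARRDC3, an arrestin relative, and PREX2, an exchange factor for Rac that beta-gamma subunits activate, stood at -0.26 ± 0.14 (adjusted p = 0.233) and -0.43 ± 0.17 (adjusted p = 0.0671) per the authors' deposited table. CCKBR, the 1 tested gene of the list of other peptide receptors, stood at 0.22 ± 0.27 per the authors' deposited table (mean 97.9, adjusted p = 0.648). The receptor kinase gene GRK2 and the cyclic AMP-responsive factor gene ATF1 were listed at 0.

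**Figure D4:**
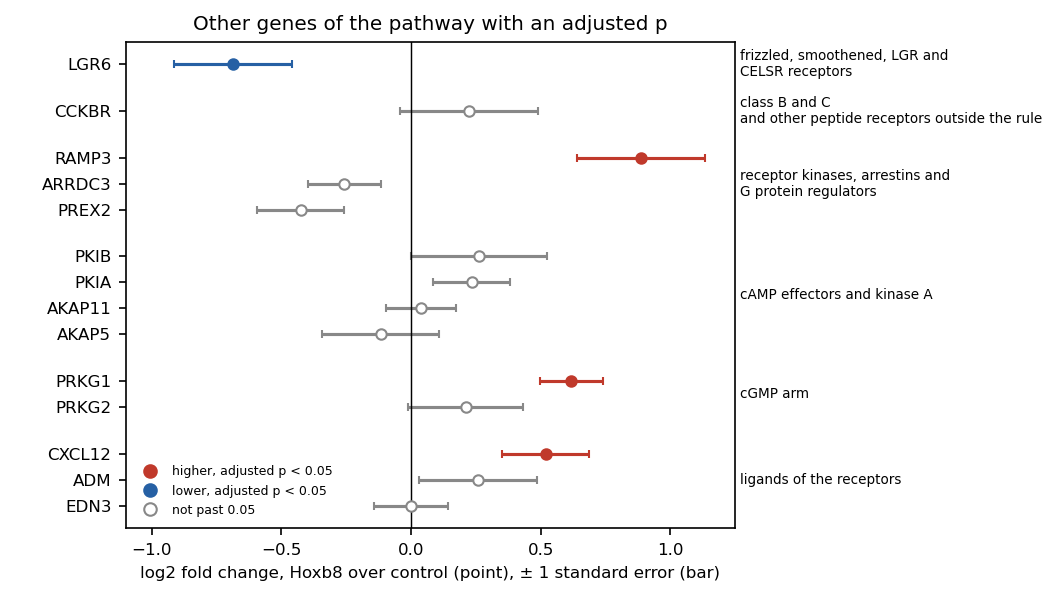
Log2 fold change of Hoxb8 over control (horizontal axis) for the 14 pathway genes outside the naming rule with an adjusted p, grouped by list; points are the authors' deposited estimates, bars 1 SE, and filled points passed 0.05. RAMP3 (0.89), PRKG1 (0.62) and CXCL12 (0.52) lie to the right and LGR6 (-0.69) to the left.

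Of the 22 tested receptor and signalling genes that did not pass, 20 had a 95% interval within 1 of 0 on the log2 scale, but only 4 within 0.5 of 0. Changes of the size seen in RGS7BP or S1PR1 could thus have gone uncalled in most of them. The inferred moderation toward 0 would make the intervals of the low genes too narrow to bound a change.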

How the data were processed

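Polyadenylated RNA of 4 libraries (2 control, 2 Hoxb8, grouped by title) was amplified linearly before sequencing, per the labels' protocols. The file is the authors' deposited table of 17108 Ensembl release 85 genes on Galgal4, per the file's name; DESeq2, DESeq, featureCounts, Subread and galGal4 appear in the submitters' processing notes, with no role or version. Per the file headers the authors' column names are those of DESeq2, from which its use by the authors is inferred. How reads were aligned and whether strand was used is not given in the sources used here. Per the file headers the deposited signal is the mean normalised count over the libraries, the authors' log2 values are the fold change and its SE, the deposited score is their ratio (largest deviation 9.24e-14), and the deposited p-values include Benjamini-Hochberg adjusted ones over 12574 genes (largest deviation 1.89e-15). WT was taken to be the control.

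The symbol column names 1432 genes (1157 of those with an adjusted p, of which 17.8 percent passed 0.05). From the table, 95% intervals (1.96 SE), running medians over 500 genes, centred values and their normal p-values, and Benjamini-Hochberg values were computed with Python 3.11.15, numpy 2.4.6 and scipy 1.17.1, and the functions were tested on simulated data. The count model, promoter motifs and sequences planned need inputs not used here. The members and gene lists were chosen with earlier results of these data known. Named were all called members, per role the 3 lowest p-values and the 1 highest mean, and per other list the called genes and the lowest p; other members and list genes are given for completeness and, like the neighbours, were added after values were seen. 1 of the members counted is not reported here by name.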

Additional observations from a re-analysis of the deposited data

How the results depend on the processing

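All 8 alternatives were applied to the deposited values. The 7 calls among the members stayed 7 without the filter on low means, with a minimum mean of 50, and under the 3 centrings, and became 8 at an adjusted p under 0.1; centring on genes of like level and on genes over 10000 exchanged genes, as named above. At an adjusted p under 0.01 there were 3 calls (1 lower), and 2 rather than 4 other pathway genes passed. For the other thresholds, the changed filters and the centring on the median of all genes, no share of all genes was counted. Member counts at those settings therefore have no background. With genes over 10000 set to 0 6 members passed as higher and 1 as lower, which follows from the upward shift of 0.12. With scores divided by their central spread there were 0 calls (0 higher, 0 lower) and 0 other pathway genes. Among the genes named by the rule above only GPR63, never called, reversed, to -0.110 when centred on genes of like level. Of the other values of those genes 193 kept direction and side, 23 lost and 5 gained a call. Outside that tally RGS20 (-0.075) and S1PR4 (-0.004) also reversed when centred on genes of like level. AKAP5 (0.008) and EDN3 (0.124) reversed with genes over 10000 set to 0, and EDN3 (0.005) also when centred on the median of all genes. None of these genes was called at any setting. Only the 3 centrings alter a log2 value, so under the other settings direction could not change. Centring on genes of like level gave PREX2 a call (adjusted p = 0.0323) and ended that of CXCL12. No paired analysis was possible because the table gives no values per library; for the same reason leaving out libraries, TMM and other count models were not run. Depth limits the 10 members below a mean of 17.5.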
